A study of Mus musculus with 6 samples.

Results

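The genes described here are 9 that build the astrocyte endfoot, the flattened process that astrocytes press against blood vessels and the brain surface, and the gap junctions that join astrocytes to each other. They were chosen by symbol: Mlc1, Hepacam and Clcn2 of the MLC1 complex, the channel genes Aqp4 and Kcnj10, Dag1 and Dtna of the dystroglycan complex, and the connexin genes Gja1 and Gjb6. All 9 were found among the 35857 genes of the deposited tables. The libraries were made from polyadenylated cortical RNA of C57BL/6 mice at postnatal day 7 and were read on the Ion Proton sequencer. Controls were 3 brains with a wild-type genotype label, and the other 3 brains carried the label Qk-/-, a knockout of the gene for quaking, an RNA-binding protein of glia and neural progenitors. From its title, the series asks about the part of quaking in the step from neurogenesis to gliogenesis. Which exons were deleted, by which Cre driver if any, and in which cells is not given in the sources used here.

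Endfeet let astrocytes take up water and potassium near vessels and hold the cell to the basement membrane. GlialCAM, the product of Hepacam, is an adhesion molecule that brings the membrane protein MLC1 and the chloride channel encoded by Clcn2 to the contacts between astrocytes, and loss of MLC1 or GlialCAM causes a leukodystrophy with swollen white matter. The water channel encoded by Aqp4 is anchored by adaptor proteins to dystrophin and dystroglycan, which binds laminin and agrin outside the cell, while connexins form the channels through which astrocytes share ions and small metabolites.

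The changes of the members were uneven in size. Mlc1 was reduced to 0.458 times its control level and Gja1 to 0.718 times, and these were the 2 members that passed the test. Gjb6, at 0.632 times the control level, did not pass (adjusted p = 0.0733). The other 6 members, Hepacam, Clcn2, Aqp4, Kcnj10, Dag1 and Dtna, had ratios between 0.876 and 1.01, and none of them passed. Changes were tested with limma on log2(TPM + 1), where TPM is transcript abundance per length, scaled to a fixed library total, and p-values were adjusted over the 14994 genes whose mean reached 1 TPM. All 9 members passed that filter. Lower calls made up 0.287% of those genes and higher calls 0.1%, against 2 and 0 of the 9 members. In 5 of the 9 (Mlc1, Hepacam, Dag1, Gja1 and Gjb6) every knockout value lay below every control value, a separation downwards that 8.98% of all genes tested showed. The median log2 change of the 9 members, knockout minus control, was −0.18, beside −0.03 over all genes tested. The members and the gene lists below were chosen with earlier results of these data known. Such shares and medians therefore describe them and are not a test. In whole tissue, fewer cells of a type and less RNA per cell cannot be told apart.

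**Figure D1:**
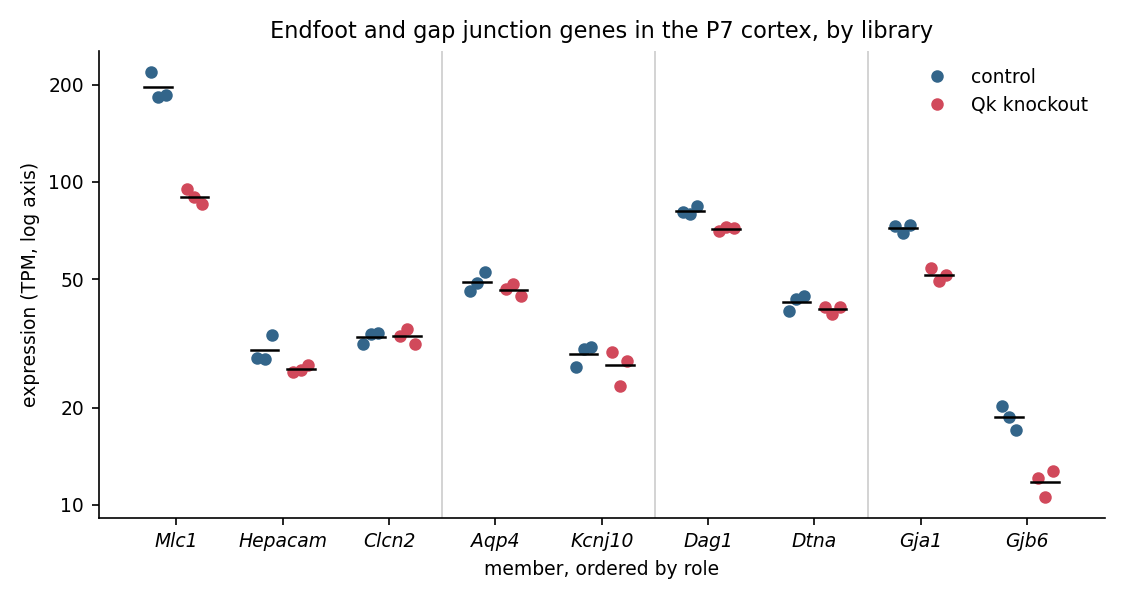
Expression in TPM (log axis) of the 9 members in each library, grouped by role from left to right: MLC1 complex, channels, dystroglycan complex and connexins. Each point is 1 library and each line a group mean of 3. Mlc1, Gja1 and Gjb6 show the widest gaps between the groups, while the points of Clcn2, Aqp4, Kcnj10 and Dtna overlap.

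Qk itself, which checks the labels, was at 36.5, 43.2 and 41.3 TPM in the control libraries and at 14.6, 15.2 and 15.4 TPM in the knockout libraries, so 0.373 times its control level remained. Each library had between 18971 and 19710 genes above 0 TPM, and its number of reads is unknown, since TPM keeps no depth. The labels speak of separate brains, so limma set each group difference against the spread between brains, moderated over all genes tested. The 6 neuronal markers summed to 3604 to 4259 TPM in control and to 3967 to 4208 TPM in knockout libraries. Most of that sum was Tubb3 (means of 2410 and 2400 TPM), and it does not check which brain region was taken. All 14 astrocyte markers outside the members were above 0 TPM.

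Quaking binds RNA at a core written ACTAAC or ACTAAT in DNA letters, and the letters in the 3′ UTRs of the members are shown here because Qk is the gene that was targeted. The longest annotated 3′ UTR of each gene in the GENCODE annotation of GRCm38 was searched on the sense strand for either core. The search also asked whether the shorter TAAC or TAAT lay within 20 bases of it, outside the core. Introns and coding sequence were not searched. Mlc1, the member with the largest fall, held no core in its 1138 bases, and neither did Gjb6 in 714 or Clcn2 in 279. Gja1 held 2 ACTAAT cores, and all others held at least 1. The 7 sites of Hepacam, Kcnj10, Dag1 and Gja1 follow in 30-base windows, 5′ to 3′, with the core in capitals.
Hepacam, chr9:37385101-37385130, plus strand: gattttatggaaACTAACagtaattttacc
Hepacam, chr9:37386202-37386231, plus strand: aacccacaatccACTAACctccccaggtgc
Kcnj10, chr1:172372575-172372604, plus strand: agggcaagctttACTAACagccacggctga
Dag1, chr9:108206862-108206891, minus strand: tttgcctttaacACTAACtgtactgttttt
Dag1, chr9:108204662-108204691, minus strand: cctttagtcaagACTAACtttagtcctcag
Gja1, chr10:56390127-56390156, plus strand: agtgcacatgtaACTAATttatttgaactg
Gja1, chr10:56390271-56390300, plus strand: ggacaatgagaaACTAATttgtttgacatt

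In that set the first Hepacam site and the first Dag1 site had the shorter sequence within reach, in the Dag1 site directly before the core. A core was found in 34.5% of the 13765 tested genes with an annotated 3′ UTR, and in 14.8% it had the shorter sequence nearby. Among 3′ UTRs of 80% to 125% of the length of each member, the share with a core was 30.8% for the length of Mlc1, 18.7% for that of Gjb6 and 10% for that of Clcn2. It was 41.2% for that of Hepacam, 41.3% for that of Gja1 and 55.2% for that of Dag1. Aqp4 and Dtna, on chromosome 18, held 2 cores and 1 core, and Kcnj10 held 1; for UTRs of their lengths the share was between 68.9% and 69.4%. The cores are letters in a sequence and were not tested for binding.

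Mlc1, on the minus strand of chromosome 15 (88955884 to 88979007 in GRCm38), encodes the membrane protein after which the complex is named. Control replicates 1, 2 and 3 held 219, 184 and 186 TPM, and knockout replicates 1, 2 and 3 held 94.8, 89.5 and 85.2 TPM. The lowest control library stood far above the highest knockout library. Group means were 196 ± 19.9 and 89.9 ± 4.82 TPM (SD, n = 3), a log2 change of −1.11 (standard error 0.0877; adjusted p = 0.00153, limma). By p-value it was number 5 of all genes tested. Mlc1 passed in all 6 fits that left out 1 library, with adjusted p-values from 0.00144 to 0.0101.

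Hepacam, on the plus strand of chromosome 9 (37367351 to 37386575), encodes the adhesion partner of MLC1. It was at 28.4, 28.3 and 33.5 TPM in the control libraries and at 25.8, 26.1 and 27.1 TPM in the knockout libraries. The groups did not overlap, but the gap between the nearest libraries was narrow and control replicate 3 stood above the rest. The log2 change was −0.18, with a 95% interval of −0.40 to 0.04 (limma, adjusted p = 0.651). Without control replicate 3 it was −0.10.

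Clcn2 encodes the chloride channel that GlialCAM carries to cell junctions, and lies on the minus strand of chromosome 16 (20702964 to 20717746). Its control libraries were at 31.4, 33.9 and 33.9 TPM and its knockout libraries at 33.4, 35 and 31.6 TPM. The groups overlapped. The log2 change was 0.01 with a 95% interval of −0.18 to 0.20, and its sign turned to −0.03 without control replicate 1 and to −0.02 without knockout replicate 2. Clcn2 shares 85 exonic bases with Fam131a and 82 with Polr2h, both on the opposite strand, and whether strand was used in counting is not given in the sources used here.

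Within the MLC1 complex, Mlc1 made up less of the transcripts in each knockout library. The ratio of Mlc1 to Hepacam was 7.71, 6.5 and 5.54 in control replicates 1, 2 and 3 and 3.67, 3.43 and 3.14 in knockout replicates 1, 2 and 3. Every knockout ratio was below every control ratio. The log2 difference between the genes went from 2.67 ± 0.234 to 1.73 ± 0.112 (SD, n = 3), a difference of −0.93. An exact two-sided permutation test gave p = 0.1, the smallest value that 3 against 3 libraries allow, and 0.267 adjusted over the 4 pairs of partners compared.

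**Figure D2:**
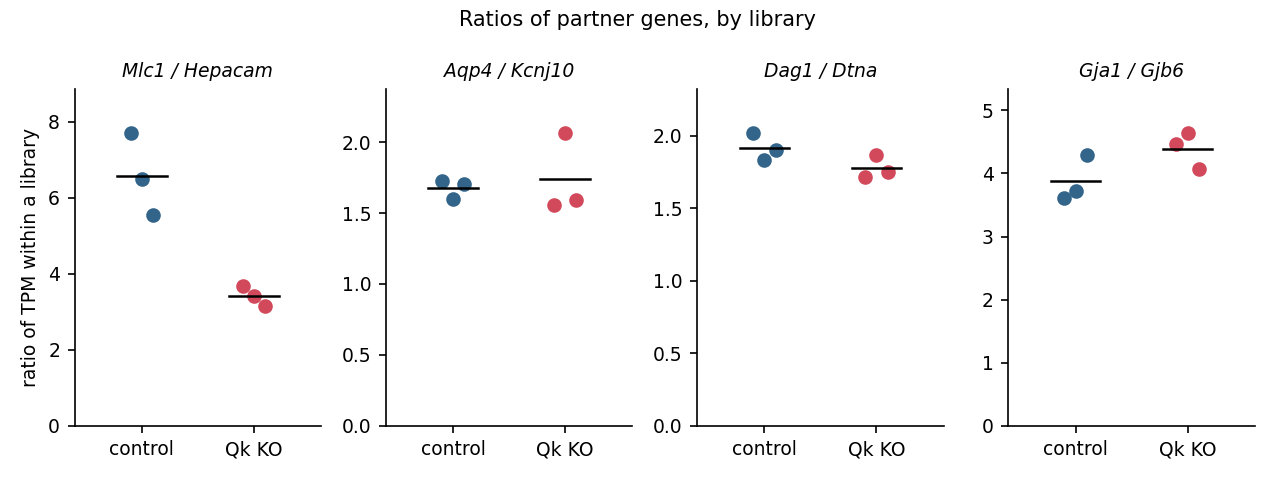
Ratio of TPM of 4 pairs of partner genes within each library, with control and Qk knockout (Qk KO) libraries as points, group means as lines and axes from 0. The Mlc1 to Hepacam ratios of the groups stand apart, from 5.54 upwards in control and at most 3.67 in knockout libraries, and those of the other pairs overlap.

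Of the 7 genes for further partners of MLC1 and GlialCAM, none passed the test in either direction (median log2 change −0.07). Gpr37l1, an orphan receptor of astrocytes, was at 64.8, 69.2 and 77.6 TPM in control and at 65.6, 55.2 and 57.4 TPM in knockout libraries. The groups overlapped through knockout replicate 1, and the adjusted p was 0.519 (limma). Atp1b1, which encodes a subunit of the sodium pump, was at 565 ± 36.4 and 602 ± 34.3 TPM (control and knockout, SD, n = 3). Of 7 tested genes listed with the chloride channel family of Clcn2, which include the accessory subunit gene Ostm1, none passed either (median −0.07). Clcn4, a chloride and proton exchanger and the most abundant of them, was at 167 ± 4.98 and 176 ± 4.31 TPM, and Clcn3 and Clcn6 were at 63.5 ± 3.53 and 60.7 ± 4.66 TPM and at 45.5 ± 4.16 and 43.1 ± 1.6 TPM.

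The channel genes of the endfoot were near their control level. Aqp4, the main water channel gene of the brain, was at 46, 48.7 and 52.5 TPM in the control libraries and at 46.4, 48.2 and 44.5 TPM in the knockout libraries. The groups overlapped, and the 95% interval of the log2 change ran from −0.27 to 0.11 around −0.08 (limma, adjusted p = 0.847), which was −0.03 without control replicate 3. Kcnj10 encodes the inward rectifier potassium channel with which astrocytes clear potassium; it lies on the plus strand of chromosome 1 (172341210 to 172374085). It was at 26.7, 30.5 and 30.8 TPM in control and at 29.8, 23.3 and 28 TPM in knockout libraries. The groups overlapped and knockout replicate 2 was the lowest library. The interval of its log2 change, −0.12, was −0.37 to 0.14 (limma, adjusted p = 0.83), and without knockout replicate 2 the change was −0.02. The ratio of Aqp4 to Kcnj10 was 1.68 ± 0.0686 in control and 1.74 ± 0.283 in knockout libraries (SD, n = 3). For their log2 difference per library, exact permutation p = 1 before and after adjustment. Without knockout replicate 2 the shift of that difference turned from 0.04 to −0.09.

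Of 11 further aquaporin genes 3 were abundant enough to be tested, and of 14 further inward rectifier genes 12; none passed (median log2 changes −0.22 and −0.10). Aqp11, which encodes an aquaporin of internal membranes, was at 24 ± 2.13 and 20.6 ± 2.59 TPM, and Aqp1, the water channel gene of the choroid plexus, at 10 ± 1.67 and 9.05 ± 2.45 TPM in control and knockout (SD, n = 3). Kcnj16, whose product joins that of Kcnj10 in mixed channels, was at 8.93, 7.11 and 8.43 TPM in control and at 5.93, 4.82 and 6.1 TPM in knockout libraries. The groups did not overlap, and the adjusted p was 0.363 (limma). Kcnj9 and Kcnj4, genes for neuronal inward rectifiers, were at 30.9 ± 1.81 and 25.8 ± 2.19 TPM and at 96.6 ± 4.45 and 88 ± 9.72 TPM.

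Dag1 encodes dystroglycan, the laminin and agrin receptor, and lies on the minus strand of chromosome 9 (108204634 to 108263958). It was at 80.5, 79.8 and 84 TPM in the control libraries and at 70.3, 72.6 and 71.8 TPM in the knockout libraries. The groups did not overlap and each was tight, with coefficients of variation of 2.76% and 1.62%. The log2 change was −0.18, with a 95% interval of −0.34 to −0.03 before adjustment, and did not pass over all genes (limma, adjusted p = 0.472). Dtna, the gene of the adaptor alpha-dystrobrevin, was at 39.8, 43.4 and 44.2 TPM in control and at 41, 38.9 and 41 TPM in knockout libraries. These values overlapped (log2 change −0.07, 95% interval −0.25 to 0.11). Dtna shares 90 exonic bases with the antisense gene Gm47898. The ratio of Dag1 to Dtna was 1.92 ± 0.0935 and 1.78 ± 0.0779 (SD, n = 3). For their log2 difference per library the exact permutation p was 0.2, adjusted 0.267.

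No other gene of the dystrophin complex passed among 12 tested of 15, but 9 of the 12 had a negative log2 change, against 57% of all genes tested, with a median of −0.24. In 6 of the 12 the knockout values lay below the control values without overlap, beside the 8.98% of all genes. Sgcb, for beta-sarcoglycan, was at 39.4 ± 1.49 and 32.6 ± 3.26 TPM, and Sspn, for sarcospan, at 7.11 ± 0.906 and 4.69 ± 0.8 TPM (SD, n = 3). Dmd, the dystrophin gene, and Dtnb, the beta-dystrobrevin gene, overlapped between the groups at 17.8 ± 2.42 and 19.2 ± 1.68 TPM and at 38.2 ± 3.77 and 39.9 ± 1.09 TPM.

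Genes on either side of dystroglycan did not pass. Of 12 genes for enzymes that build its laminin-binding sugar chain, 9 had a negative log2 change and the median was −0.05. Pomt2, an O-mannosyltransferase gene, was at 13, 16 and 13.2 TPM in control and at 10.7, 10 and 10.9 TPM in knockout libraries, which did not overlap (limma, adjusted p = 0.359). B4gat1, Pomgnt1 and Large, the most abundant of these enzyme genes, were at 140 ± 7.16 and 152 ± 13.2 TPM, at 102 ± 5.76 and 92.3 ± 8.91 TPM and at 88.7 ± 4.72 and 82.8 ± 1.46 TPM (control and knockout, SD, n = 3). Among 11 genes for matrix ligands the median was −0.14. Agrn, the agrin gene, was at 171 ± 7.32 and 156 ± 8.45 TPM, and the laminin genes Lamb1 and Lamc1 were at 31.3 ± 1.66 and 27.4 ± 2.33 TPM and at 20.5 ± 1.62 and 21.4 ± 1.8 TPM.

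Both astrocyte connexin genes were lower in the knockout libraries. Gja1, on the plus strand of chromosome 10 (56377330 to 56402513), was at 72.9, 69.5 and 73.4 TPM in control and at 54.1, 49.2 and 51.5 TPM in knockout libraries. The groups were well apart. Gja1 fell, with group means of 71.9 ± 2.13 and 51.6 ± 2.44 TPM (SD, n = 3; log2 change −0.47, standard error 0.0738; limma, adjusted p = 0.0413). The call was lost whichever of the 6 libraries was left out (adjusted p = 0.0948 to 0.188, log2 changes −0.51 to −0.44) and with the replicate number as a block (0.112). With all 6 libraries it was also lost with no expression filter (0.06), median-of-ratios (0.0501) or quantile scaling (0.0592) and no variance trend (0.119).

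Gjb6, on the minus strand of chromosome 14 (57123303 to 57133611), was at 20.2, 18.7 and 17.1 TPM in control and at 12.1, 10.6 and 12.7 TPM in knockout libraries. All knockout values were lower than all control values, and the log2 change was −0.62 with a 95% interval of −0.88 to −0.36 before adjustment. Over all genes the adjusted p was 0.0733 (limma). The proportion of the connexin transcripts overlapped between the groups: Gja1 stood at 3.61, 3.72 and 4.29 times Gjb6 in control and at 4.48, 4.64 and 4.07 times in knockout libraries. For their log2 difference per library the exact permutation p was 0.2, adjusted 0.267.

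**Figure D3:**
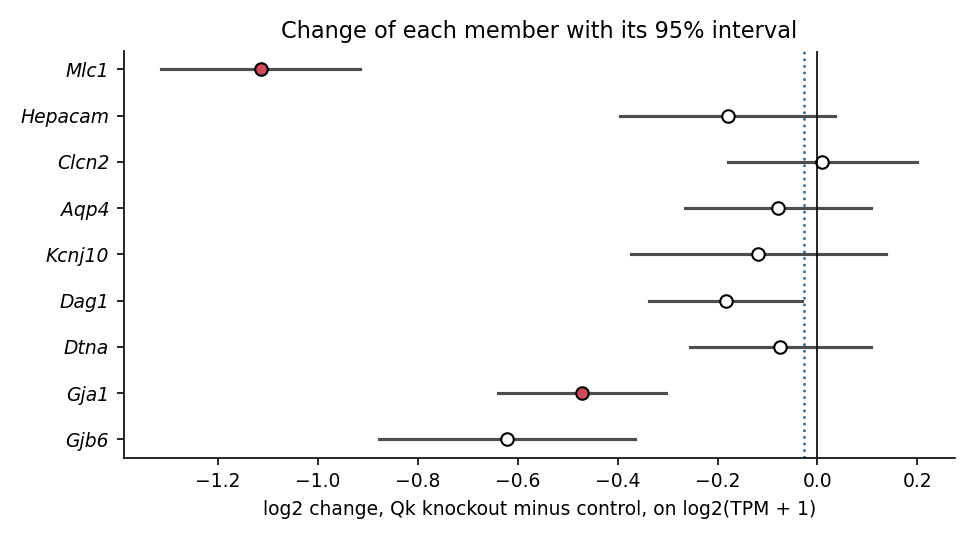
Log2 change of each member, knockout minus control, on the log2(TPM + 1) scale, with its 95% interval from limma before adjustment. Filled points passed an adjusted p of 0.05 (Mlc1 and Gja1) and open points did not; the dotted line marks the median of all genes tested, −0.03.

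Other connexin and pannexin genes went both ways, and none of 11 tested of 21 passed (median log2 change −0.02). Gjb2, whose product also joins astrocyte and meningeal junctions, was at 14.2, 15.3 and 18 TPM in control and at 15.5, 13.7 and 13.4 TPM in knockout libraries, with overlap. Panx1 and Panx2, genes of pannexin channels, were at 68.6 ± 10.1 and 67.7 ± 8.82 TPM and at 71.3 ± 6.88 and 69.5 ± 6.24 TPM, and Gjd2, a neuronal connexin gene, was at 20.6 ± 1.63 and 24.7 ± 4.23 TPM. Of 5 scaffold genes for these junctions none passed (median −0.15). Tjp1, whose product binds the tail of the Gja1 protein, was at 18.1 ± 0.366 and 16.2 ± 1.58 TPM (SD, n = 3).

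**Figure D4:**
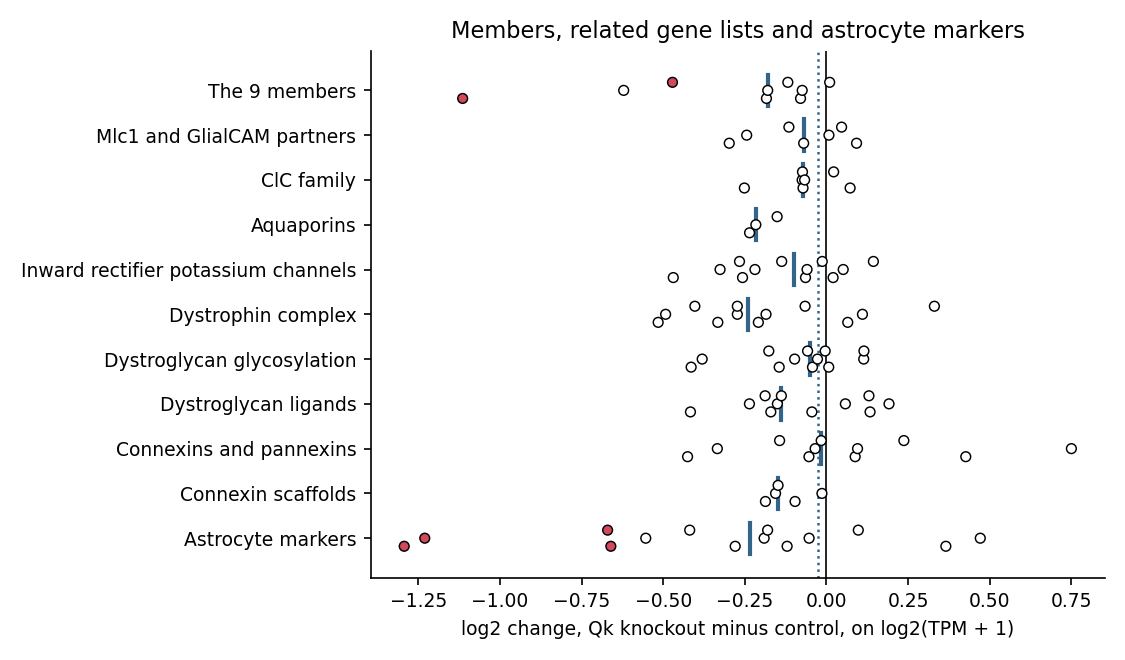
Log2 changes, knockout minus control, of the members, of 9 lists of related genes and of 14 astrocyte markers, 1 point per tested gene, filled where the adjusted p was under 0.05. Blue bars are list medians and the dotted line is the median of all genes tested; the filled points are Mlc1, Gja1 and 4 astrocyte markers.

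The order of the members by level was nearly the same in both groups. From high to low in control it was Mlc1, Dag1, Gja1, Aqp4, Dtna, Clcn2, Hepacam, Kcnj10 and Gjb6, and in knockout cortex Hepacam and Kcnj10 stood in reverse order. In control, neighbours overlapped only between Clcn2 and Hepacam and between Hepacam and Kcnj10, and in knockout only between Kcnj10 and Hepacam. Mlc1 alone made up 38.8%, 34.2% and 33.4% of the summed TPM of the 9 members in control libraries, and 23.3%, 22.7% and 21.7% in knockout libraries. That sum was 552 ± 14.5 TPM in control and 398 ± 8.31 TPM in knockout libraries (SD, n = 3), and without Mlc1 it was 356 ± 12.1 and 308 ± 4.51 TPM.

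The 5 genes whose profile over the 6 libraries lay closest to that of Mlc1 were Slc1a3, S100b, Entpd2, Tmem100 and Sfxn5. Closeness was the Euclidean distance between log2(TPM + 1) values centred on their mean. It was ranked among 9210 genes other than Mlc1 whose mean reached 10 TPM, without genes that carry predicted or clone-based names. Since the group difference dominates such profiles, closeness is a description. Slc1a3, a glutamate transporter gene of astrocytes, was at a distance of 0.229 and went from 265 ± 11.3 to 112 ± 4.86 TPM. Sfxn5, a mitochondrial carrier gene at 0.321, went from 55.7 ± 3.04 to 26.5 ± 2.21 TPM (SD, n = 3). Among the members, Gjb6 was number 27 and Gja1 number 53 by closeness to Mlc1, Dag1 number 792 and its own partners Hepacam and Clcn2 numbers 1119 and 5391.

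**Figure D5:**
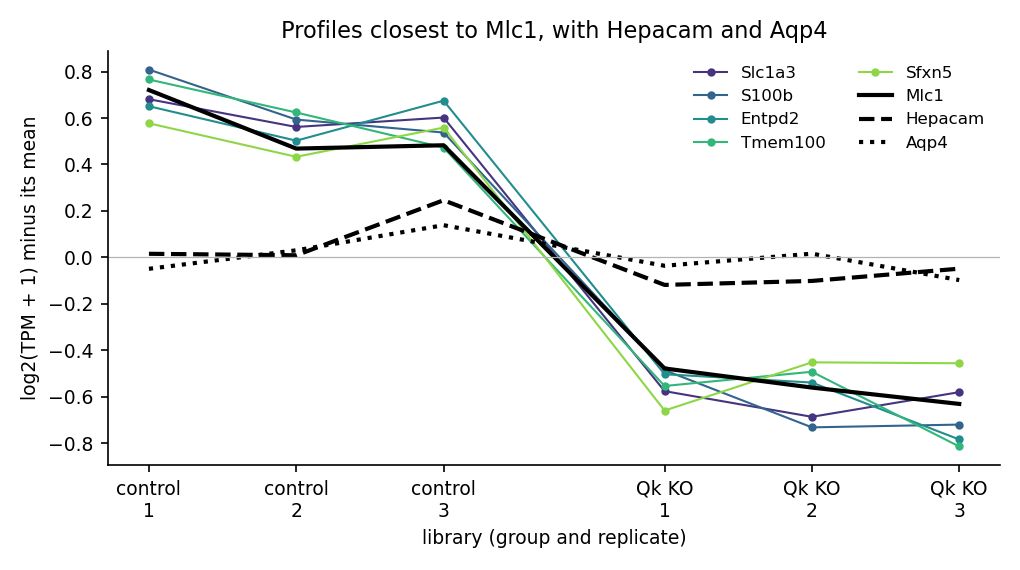
Log2(TPM + 1) minus its mean over the 6 libraries for Mlc1, the 5 genes closest to it, Hepacam and Aqp4, by library. The 5 genes were chosen for this likeness; the lines of Hepacam and Aqp4 stay near 0 where that of Mlc1 drops by 1.11.

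Markers of astrocytes differed between the groups beside the members. The 14 astrocyte markers outside the members summed to 1312 to 1407 TPM in control and to 975 to 1093 TPM in knockout libraries, without overlap; 4 of them fell (Slc1a3, S100b, Acsbg1 and Fgfr3) and 0 rose, with a median log2 change of −0.24. With 1 library left out, Slc1a3 and S100b passed in all 6 fits, Acsbg1 in 2 and Fgfr3 in 0, and among the markers named next Gpr17 passed in 5 and Olig2 in 3. Of the 14 astrocyte markers, 11 had a negative log2 change, against 57% of all genes tested. In 9 of them every knockout value lay below every control value, beside 8.98% of all genes, and in 1 (Aldh1l1) above. Some other astrocyte markers were near or above control: Aldh1l1, a folate enzyme gene, was at 55.5 ± 7.22 and 77 ± 4.93 TPM and Sox9, a glial transcription factor gene, at 13.5 ± 2.06 and 12.9 ± 1.26 TPM (SD, n = 3). Part of the members are also expressed in ependyma, the meninges and the oligodendrocyte lineage. The 6 markers of meningeal fibroblasts summed to 192 to 220 TPM in control and to 168 to 196 TPM in knockout libraries, with overlap. The 6 of ependyma and choroid plexus summed to 753 to 1541 and 688 to 1036 TPM, most of it Ttr of the choroid plexus (1210 ± 423 and 783 ± 184 TPM). In that list 5 of the 6 had a negative log2 change, with a median of −0.32. The gene of the cilia regulator Foxj1 rose, with means of 8.6 ± 1.48 and 16.4 ± 1.13 TPM (SD, n = 3, limma adjusted p = 0.0428). With 1 library left out its limma adjusted p was 0.0518 to 0.159. Ccdc153, also in that list, was at 3.63 ± 1.52 and 3.48 ± 1.81 TPM. The 6 oligodendrocyte markers summed to 223 to 232 and 133 to 148 TPM, without overlap. The 6 precursor markers summed to 295 to 332 and 334 to 367 TPM, but 4 of the 6 were lower and their median log2 change was −0.22. Olig1 and Olig2, genes for lineage factors, were higher, and Olig2 passed (log2 change 0.65; limma, adjusted p = 0.0152), while Gpr17, a receptor gene of cells leaving the precursor stage, fell to 0.345 times control (limma, adjusted p = 0.00963). The part of these shifts in the values of Mlc1, Gja1 and Gjb6 was not tested.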

How the data were processed

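Polyadenylated RNA of 6 cortices (3 control, 3 Qk-/-) was measured, and groups and replicate numbers come from the sample titles. The authors deposited 1 TPM value per gene and library; STAR 2.4.1d and RSEM 1.3.0 with builds mm10 and GRCm38.p4 are named per the submitters' processing notes, while order, annotation and strand use were not stated in the sources used here. TPM has a fixed total, so abundant genes lower the others, and depth is unknown. Genes whose mean reached 1 TPM were fitted as log2(TPM + 1) in limma 3.58.1 (R 4.3.3; eBayes with trend; group only; two-sided; Benjamini-Hochberg over 14994 genes; threshold 0.05), a script tested on simulated data. Partner pairs used exact permutation tests (scipy 1.17.1) on the difference of their log2(TPM + 1) values per library. Sequences and coordinates are from GENCODE M21 (GRCm38). No pair of libraries was a duplicate: 50 to 75 tested genes had identical values.

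Members and lists were chosen with earlier results of these data known. Named were Qk, the 9 members, the members of 9 related lists past the threshold and their 3 most abundant genes, and the 5 genes closest to Mlc1. Kcnj16, Sspn, Dmd, Pomt2, Gjb2 and the single cell type markers were named after their values were seen. Some genes that the rule names are left out here. Marker lists for endothelium, microglia and radial glia were also summed: they were at 411 to 540 and 403 to 453 TPM, at 115 to 126 and 117 to 124 TPM, and at 1039 to 1254 and 1231 to 1409 TPM in control and knockout libraries. Most of the radial glia sum was Fabp7 (means of 900 and 1046 TPM). In that list Vim rose and Hopx fell (limma, adjusted p = 0.0193 and 0.0152). With 1 library left out, Vim passed in 2 and Hopx in 4 of 6 fits.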

Additional observations from a re-analysis of the deposited data

How the results depend on the processing

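Over 14 alternatives (pseudocounts of 0.1 and 5, no expression filter or one at 5 TPM, median-of-ratios and quantile scaling, no variance trend, the replicate block and each library left out), Mlc1 kept its direction and its call, with log2 changes of −1.16 to −1.03. The number of members past the threshold was 2 with either pseudocount and the 5 TPM filter, and 1 with no filter, with either scaling, with no trend and with the replicate block; it was 1 in each fit that left out 1 library. The member lost was Gja1, with adjusted p-values of 0.06, 0.0501 (median-of-ratios), 0.0592 (quantile), 0.119 and 0.112 in those settings. Gjb6 did not pass in any (0.0508 to 0.24). Genes past the threshold numbered 58, and 37 with no filter, 28 with no trend, 38 with the replicate block and 27 to 59 with 1 library left out; leaving out a library also leaves fewer samples. The cause of the other shifts was not tested. With 1 library left out, the log2 change of Clcn2 ranged from −0.0256 to 0.047, below 0 without control replicate 1 (−0.0256) or knockout replicate 2 (−0.0244). The shift of Aqp4 against Kcnj10 ranged from −0.087 to 0.109, below 0 without knockout replicate 2. Replicate numbers share no stated litter or batch: same-numbered libraries had deviations correlated at 0.035, 0.0311 and 0.0134, each the highest for its number; the block changed the call of Gja1 and of no other member. With TPM alone, the counting error of low genes is unknown.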
